A study of Neurospora crassa with 10 samples.

Results

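The step between 15 and 60 min of light was examined in *Neurospora crassa* mycelium by comparing the 2 samples lit for 60 min with the 2 samples lit for 15 min, within each replicate. These were 4 of the 10 samples of the series, chosen by their labels alone. All cultures were of the wild type, strain FGSC2489, and had grown for 24 hr in the dark at 25° in shaken liquid medium before white light of 1200 lux was switched on. The 60 min group held 2 cultures, and the 15 min group held 2 cultures. Samples kept in the dark and samples lit for 120 min, 2 of each, entered the fit for the estimate of the spread and served as the levels before and after the step. No mutant without a photoreceptor was among the samples, so a change between 15 and 60 min cannot be told apart here from a change with time alone. Replicates 1 and 2 were independent cultures whose poly(A) RNA was isolated in different ways, on oligo-dT cellulose in replicate 1 and on magnetic beads in replicate 2.

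Light is sensed in this fungus by the White Collar Complex (WCC), in which WC-1 is both the blue light receptor and, with WC-2, a transcription factor. Some of the genes that the WCC binds are switched on within minutes, and a number of these are then turned down again as the small photoreceptor VVD, itself a product of such a gene, damps the complex. Several of its targets encode transcription factors, and a later set of genes follows them, with roles in stress protection and metabolism. Pigment genes are, by the study's account, among those induced rapidly. The comparison of 60 with 15 min asks which genes were leaving the early response and which were joining the late one.

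Levels were given as FPKM, fragments per kilobase of transcript scaled to the mapped fragments of the library, for 9728 genes in each sample. FPKM carry no read totals, but the study describes replicate 2 as sequenced less deeply than replicate 1 at every time, so its values for weakly expressed genes are less precise. Summed over all genes, FPKM came to 944127 and 1009370 at 60 min, against 647197 and 739137 at 15 min, so both replicates had a higher sum at 60 min. Of this gain, 29.2% in replicate 1 and 30.7% in replicate 2 came from 10 genes, with the clock-controlled gene *ccg-1* first in replicate 1 and the thiazole biosynthetic enzyme gene NCU06110 first in replicate 2. The rise of NCU06110 did not pass the test described below, though it did under some other settings, such as median-of-ratios scaling. Markers of spore formation were set beside the label mycelium and did not all point one way. The conidiation genes *con-13* and *acon-3* reached at most 0.359 and 1.10 FPKM in the 8 samples. *con-6*, *con-10*, and *eas*, which light is known to induce in mycelium, were present and are described below. *eas* already had 71.4 and 45.7 FPKM in the dark, and the conidiation gene *fl* had 11.7 and 8.67 at 15 min. Of markers of sexual development, the pheromone gene *ccg-4* had 149 and 354 FPKM in the dark, and the ascospore gene *asl-1* had 15.7 and 11.8. The others were low in the dark, with 1.53 and 0.668 FPKM for *fmf-1* and 3.88 and 2.39 for the mating-type gene *matA-1*. The mating-type genes *matA-2* and *matA-3* had 0.0581 and 0, and 0.0577 and 0.0927. The markers thus do not settle the label. In bulk samples of this kind, fewer cells of one type and less RNA per cell cannot be told apart.

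Of 7220 genes with a mean FPKM above 1, 364 were at least 2-fold higher at 60 than at 15 min in both replicates and 220 were at least 2-fold lower in both, which is 5.04% and 3.05%, and together 8.09%, of the genes tested. A further 488 genes passed 2-fold in only one replicate, and 0 passed it in opposite directions. The sign of the change was the same in both replicates for 85.1% of the genes. All 584 genes with such a large change also had an adjusted p of 0.05 or less in limma on log2(FPKM + 1), with the replicate as a block. By that test alone 4136 genes were called, 57.3% of those tested, with 1855 higher (25.7%) and 2281 lower (31.6%) at 60 min. Most of these calls were small, since 81.6% had a fitted change under 2-fold. The number of calls rested on the design: it was 413 without the block and 344 when the 240 min samples, whose replicates diverge, were added to the fit. Of the 584 large changes, 319 were still called without the block and 210 with all 10 samples. In the 18 gene lists described below the fit without the block gave 0 to 8 rises and 0 to 5 falls, and these counts are given beside the lists. They are to be read against all genes, where that fit gave 276 rises and 137 falls among 7220. For the other settings given beside lists, all genes gave 1809 rises and 1816 falls among 6933 with the trend with gene length removed. Under quantile normalization they gave 1695 and 1949 among 7220. In what follows a gene is said to have risen or fallen by the test with the block, and fold changes are on the log2(FPKM + 1) scale unless FPKM are given.

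**Figure D1:**
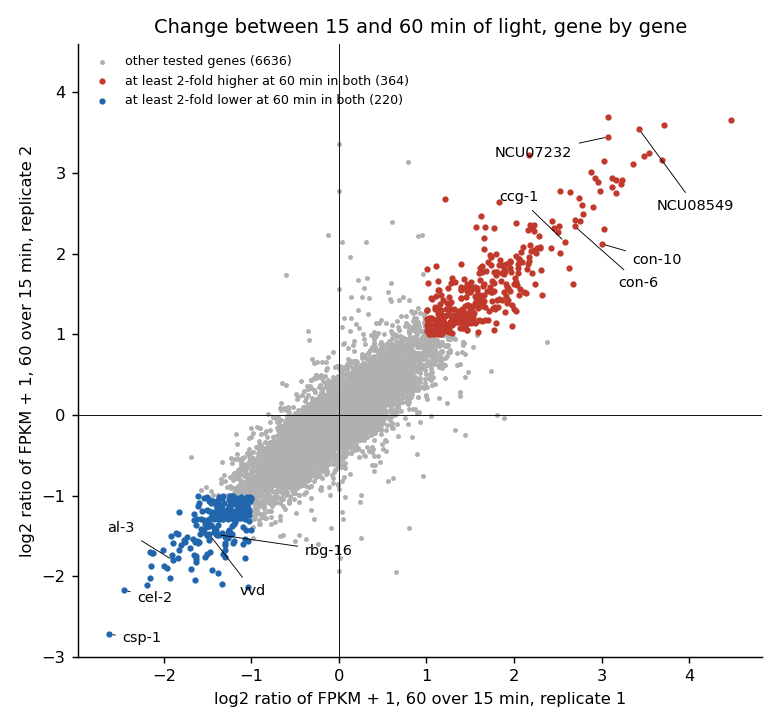
Each point is 1 of the 7220 genes tested, placed by its log2 ratio of FPKM + 1 at 60 over 15 min in replicate 1 (x axis) and in replicate 2 (y axis). The 364 genes at least 2-fold higher at 60 min in both replicates are red and the 220 genes at least 2-fold lower in both are blue; *csp-1* lies lowest, and no gene passes 2-fold in opposite directions.

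Genes already raised at 15 min went in both directions by 60 min. To keep the shared 15 min sample from creating the pattern, genes were chosen in one replicate and measured in the other. Of the 278 genes at least 2-fold higher at 15 min than in the dark in replicate 1, 15.8% were at least 2-fold lower and 18.3% at least 2-fold higher at 60 than at 15 min in replicate 2, beside 4.58% and 6.43% of all genes tested. The 317 genes chosen the same way in replicate 2 gave 13.6% lower and 21.1% higher in replicate 1, beside 4.94% and 6.98% of all genes. Their median log2 ratio was near 0 either way, -0.08 in replicate 2 and 0.11 in replicate 1. Early induced genes thus had a wider spread of changes than all genes, with no common direction. In both replicates at once, 229 genes (3.17% of those tested) were at least 2-fold above the dark level at 15 min, of which 39 were at least 2-fold higher at 60 than at 15 min, 36 at least 2-fold lower, and 154 neither.

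**Figure D2:**
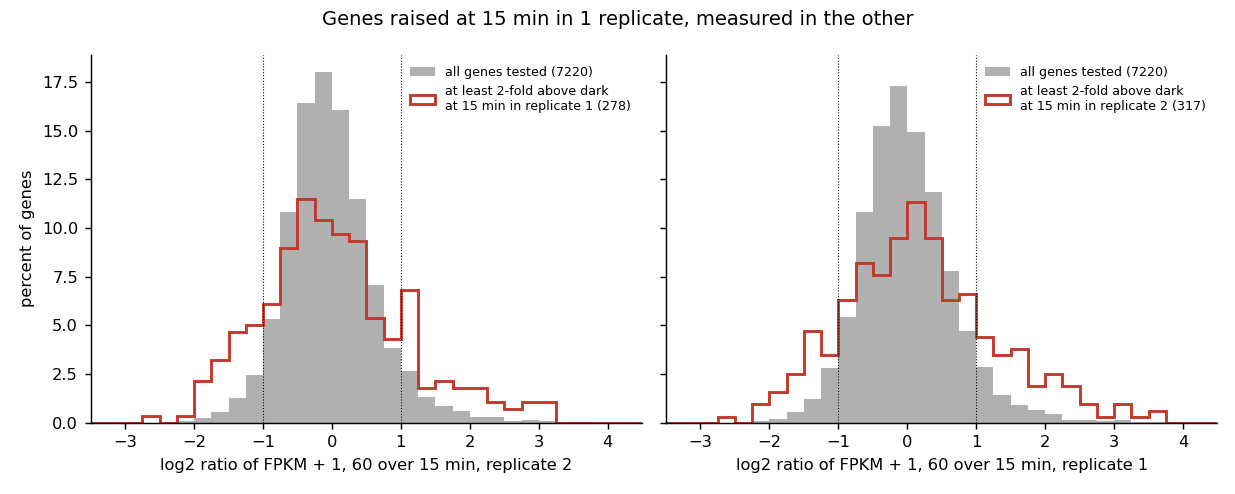
Percent of genes (y axis) by log2 ratio of FPKM + 1 at 60 over 15 min (x axis) in the replicate not used to choose them, for genes at least 2-fold above the dark level at 15 min (red line) and for all 7220 genes tested (gray bars). The red line is broader on both sides, with 15.8% of 278 genes below -1 and 18.3% above 1 in replicate 2.

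The large changes of this step were mostly not reversals of early ones. Of the 504 genes at least 2-fold higher at 60 than at 15 min in replicate 1, 4.96% were at least 2-fold below the dark level at 15 min in replicate 2, beside 2.17% of all genes. A further 13.3% were at least 2-fold above the dark level at 15 min in replicate 2, and 70.4% were so at 60 min, beside 4.39% and 10.1% of all genes. Among the 357 genes at least 2-fold lower at 60 than at 15 min in replicate 1, 12.04% were at least 2-fold above the dark level at 15 min in replicate 2, whereas 54.9% were at least 2-fold below it at 60 min and 43.4% at 120 min, beside 9.85% and 9.65% of all genes. With the choice in replicate 2 and measurement in replicate 1, 3.66% of the rising genes were below the dark level at 15 min, beside 1.93% of all genes. The shares above it were 10.99% and 73.9%, beside 3.85% and 11.5%. The falling genes gave 13.3% above the dark level at 15 min, beside 3.85%. Below it were 60.1% at 60 min and 52.0% at 120 min, beside 10.5% and 10.1%. Of the 220 genes that fell at least 2-fold in both replicates, 96 had their highest level in the dark and 100 at 15 min in both replicates, over the dark, 15, 60, and 120 min samples. Only 24 of the 220 both rose at least 2-fold above the dark level at 15 min and were back within 2-fold of it at 60 min in both replicates. Of the 364 rising genes, 259 were highest at 60 min and 62 at 120 min in both replicates.

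The change also moved with gene length. Among the 6933 tested genes (96.0%) with a length in RefSeq, split into 10 groups of equal size by length, the shortest genes (up to 1302 bp) had a median log2 ratio at 60 over 15 min of 0.44 in replicate 1 and 0.34 in replicate 2, and the longest (4420 bp and more) had -0.47 and -0.31. The medians went down with each step in length in both replicates. In the same 10 groups the ratio of 15 min over dark lay between -0.13 and 0.07 and showed no such slope. Large rises made up 16.4% of the shortest group and 0.576% of the longest, and large falls 0.720% and 5.91%. The part of length in the single results was not tested, but the fit was repeated with the length trend of each sample removed. This alternative was added after the data were seen, and its values are given beside the gene lists.

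**Figure D3:**
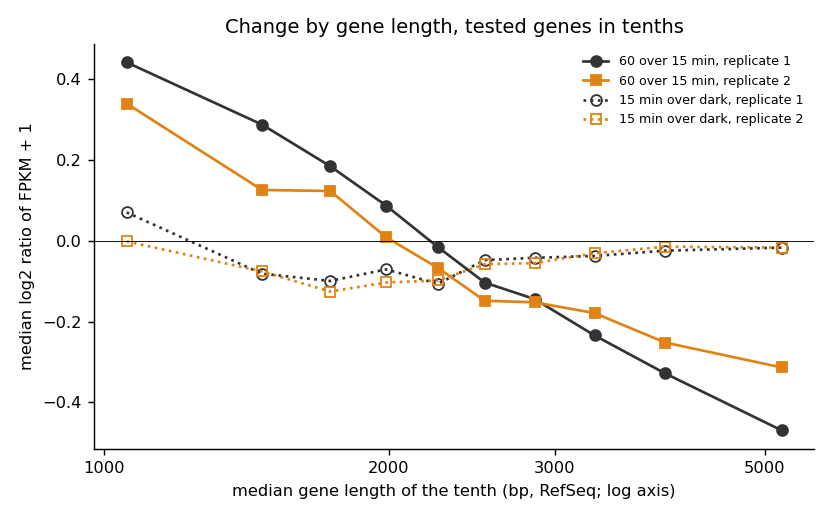
Median log2 ratio of FPKM + 1 (y axis) in 10 groups of equal size of the 6933 tested genes by gene length in bp (x axis, log scale), at 60 over 15 min (filled symbols, solid lines) and at 15 min over dark (open symbols, dotted lines), for replicates 1 and 2. The ratio at 60 over 15 min goes down from 0.44 and 0.34 in the shortest group to -0.47 and -0.31 in the longest.

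Genes of transcription factors bound by the WCC mostly fell. Of the 27 on the study's list, 17 fell (63.0%, beside 31.6% of all genes), 4 rose (14.8%, beside 25.7%), and 6 did not pass the test. Without the block 5 fell and 0 rose. The median log2 fold change was -0.52 beside -0.06 over all genes tested. With the length trend removed, 13 fell and 7 rose, with a median of -0.24, and the median length of the list was 3667 bp beside 2384 bp over all genes. The gene of the repressor CSP-1 (NCU02713), conidial separation-1, fell most of all 7220 genes. It had 46.4 and 35.4 FPKM in the dark, 389.7 and 330.4 at 15 min, 62.4 and 49.3 at 60 min, and 44.7 and 33.8 at 120 min in replicates 1 and 2 (log2 fold change -2.67, SE 0.090, adjusted p = 9.91e-08 for 60 over 15 min, limma). By 60 min most of the early rise was gone in both replicates, and the samples at 15 min stood alone. *sub-1* (NCU01154), needed for protoperithecia, had 12.4 and 10.64 FPKM at 60 min, against 40.3 and 39.1 at 15 min (log2 fold change -1.71, SE 0.098, adjusted p = 1.56e-06). The GATA factor gene of siderophore regulation, *sre* (NCU07728), had 17.4 and 12.4 FPKM at 60 min, against 55.1 and 38.9 at 15 min (log2 fold change -1.59, SE 0.092, adjusted p = 1.68e-06). *csp-2* (NCU06095), a grainyhead homolog that acts in the separation of conidia, had 20.4 and 12.1 FPKM at 60 min, against 59.4 and 31.6 at 15 min (log2 fold change -1.41, SE 0.092, adjusted p = 3.02e-06). All these genes had been at least 2-fold above the dark level at 15 min. *adv-1* and NCU07846 had not, and at 60 min both were below the dark level. NCU07846, a hypothetical protein gene, had 19.6 and 22.97 FPKM in the dark, 23.7 and 26.6 at 15 min, and 5.59 and 7.24 at 60 min (log2 fold change -1.82, SE 0.092, adjusted p = 7.89e-07). *adv-1* (NCU07392), whose product acts in development, had 15.9 and 14.8 FPKM in the dark, 17.3 and 15.4 at 15 min, and 6.80 and 6.80 at 60 min (log2 fold change -1.15, SE 0.095, adjusted p = 1.16e-05).

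Some members of the list rose. *vos-1* (NCU05964), the homolog of the developmental regulator gene *vosA* of *Aspergillus*, had 24.0 and 20.0 FPKM at 60 min, against 12.3 and 11.3 at 15 min (log2 fold change 0.84, SE 0.096, adjusted p = 8.32e-05). The NF-X1 finger gene NCU03273 had 44.3 and 17.2 FPKM at 60 min, against 22.0 and 9.37 at 15 min (log2 fold change 0.89, SE 0.10, adjusted p = 6.94e-05). *sah-1* (NCU04179), a C2H2 zinc finger gene, had 53.1 and 42.5 FPKM at 60 min, against 48.5 and 41.7 at 15 min, and did not pass the test (log2 fold change 0.08, SE 0.097, adjusted p = 0.510), but it passed as a rise with the length trend removed (0.26, adjusted p = 0.0441).

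The photoreceptor and clock genes mostly fell as well. Of 10 members 9 were tested, of which 6 fell (66.7%, beside 31.6% of all genes) and 1 rose (11.1%, beside 25.7%). With the length trend removed 5 fell and 2 rose, with a median of -0.35 in place of -0.60 (median length 4193 bp). Without the block 0 fell and 1 rose. *wc-1* (NCU02356), the blue light receptor gene, had 4.88 and 1.34 FPKM in the dark, 42.2 and 12.8 at 15 min, and 14.7 and 5.48 at 60 min (log2 fold change -1.27, SE 0.12, adjusted p = 2.21e-05), so that both replicates remained above the dark at 60 min. *vvd* (NCU03967), the gene of the photoreceptor of photoadaptation, had 4.52 and 2.18 FPKM in the dark, 537 and 293 at 15 min, and 191 and 104 at 60 min (log2 fold change -1.48, SE 0.091, adjusted p = 2.20e-06). At 60 min *vvd* was still far above its dark level in both replicates. *cry* (NCU00582), the cryptochrome gene, had 98.2 and 47.3 FPKM at 60 min, against 267 and 117 at 15 min (log2 fold change -1.36, SE 0.16, adjusted p = 9.19e-05). The clock gene *frq* (NCU02265) had 57.8 and 22.6 FPKM at 60 min, against 79.3 and 21.9 at 15 min, and did not pass the test (log2 fold change -0.20, SE 0.12, adjusted p = 0.178), replicate 1 being lower at 60 min and replicate 2 slightly higher. Among genes less than 2-fold above the dark level at 15 min, *wc-2* (NCU00902), the partner of *wc-1*, had 7.38 and 6.10 FPKM at 60 min, against 10.9 and 10.5 at 15 min. *frh* (NCU03363), the gene of the RNA helicase that binds FRQ, had 5.64 and 4.05, against 13.2 and 8.70, and both genes fell. The opsin gene *nop-1* (NCU10055) alone rose in this list, with 10.1 and 7.93 FPKM at 60 min, against 3.02 and 2.49 at 15 min (log2 fold change 1.41, SE 0.12, adjusted p = 1.51e-05).

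Within carotenoid synthesis, whose orange pigment protects against light, the genes parted. *al-3* (NCU01427), the geranylgeranyl diphosphate synthase gene, had 5.06 and 4.24 FPKM in the dark, 94.1 and 95.4 at 15 min, 24.6 and 26.6 at 60 min, and 8.003 and 8.61 at 120 min (log2 fold change -1.85, SE 0.11, adjusted p = 1.56e-06). *al-1* (NCU00552), the phytoene desaturase gene, had 523 and 346 FPKM at 60 min, against 1261 and 999 at 15 min (log2 fold change -1.40, SE 0.16, adjusted p = 9.40e-05). *al-2* (NCU00585), the phytoene synthase and cyclase gene, did not pass the test, with 753 and 418 FPKM at 60 min, against 739 and 396 at 15 min (log2 fold change 0.05, SE 0.091, adjusted p = 0.642). Its direction hung on the scaling, since it was lower at 60 min under quantile normalization (-0.42) and higher with the length trend removed (0.27). The samples at 60 min were well below those at 15 min for *al-1* and *al-3* in both replicates. *cao-2* (NCU11424), a carotenoid oxygenase gene, had 266 and 169 FPKM at 60 min, against 424 and 297 at 15 min (log2 fold change -0.74, SE 0.096, adjusted p = 1.74e-04). *ylo-1* (NCU04013), the aldehyde dehydrogenase gene of the last step, rose, with 39.7 and 28.2 FPKM at 60 min, against 20.9 and 14.2 at 15 min (log2 fold change 0.92, SE 0.11, adjusted p = 1.07e-04). In all, 4 of 6 carotenoid genes fell (66.7%, beside 31.6% of all genes) and 1 rose (16.7%, beside 25.7%), with *cao-1* the remaining fall. With the length trend removed 4 fell and 2 rose, and without the block 1 fell and 0 rose.

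DNA repair genes gave few large changes. Of 33 members 28 were tested, of which 12 fell (42.9%, beside 31.6% of all genes) and 4 rose (14.3%, beside 25.7%). With the length trend removed 3 fell and 4 rose (median length 3289 bp), and under quantile normalization 7 fell and 4 rose. Falls numbered 3 without replicate 1 at 15 min, 6 without replicate 1 at 60 min, and 0 without the block, where 1 gene rose. The photolyase gene *phr* (NCU08626), whose product reverses ultraviolet damage with light, was the one with a large fall. It had 6.49 and 3.07 FPKM in the dark, 301 and 141 at 15 min, and 116 and 63.6 at 60 min (log2 fold change -1.26, SE 0.095, adjusted p = 7.06e-06), so that both replicates kept more than their dark level. *mus-18* (NCU08850), an endonuclease gene for ultraviolet damage, had 20.9 and 14.2 FPKM at 60 min, against 34.99 and 19.7 at 15 min (log2 fold change -0.58, SE 0.13, adjusted p = 0.00390). The call for NCU08850 was lost without replicate 1 at 15 min (adjusted p = 0.0671) and with the length trend removed (adjusted p = 0.0534). *mus-8* (NCU09731), the homolog of the yeast ubiquitin conjugase gene *RAD6*, rose, with 76.1 and 79.9 FPKM at 60 min, against 41.1 and 41.7 at 15 min (log2 fold change 0.90, SE 0.088, adjusted p = 3.23e-05).

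Other early genes that fell at least 2-fold included NCU10063, NCU06125, and *mig-12*, all among the 12 largest falls. NCU10063, annotated as a sugar isomerase, had 1.77 and 4.38 FPKM in the dark, 236 and 374 at 15 min, 59.8 and 100.0 at 60 min, and 20.4 and 34.5 at 120 min (log2 fold change -1.93, SE 0.099, adjusted p = 8.53e-07). NCU06125, a hypothetical protein gene, had 38.0 and 24.4 FPKM at 60 min, against 173 and 102 at 15 min (log2 fold change -2.09, SE 0.091, adjusted p = 4.12e-07). *mig-12* (NCU09830) stands on the list of WCC targets, although its annotated product is a multidrug transporter. It had 2.77 and 1.06 FPKM at 60 min, against 15.6 and 5.76 at 15 min (log2 fold change -1.92, SE 0.25, adjusted p = 1.66e-04). *os-2* (NCU07024), which encodes the MAP kinase of the osmotic stress pathway and was chosen after its values were seen, had 84.5 and 55.7 FPKM in the dark, 201 and 126 at 15 min, and 70.1 and 44.0 at 60 min (log2 fold change -1.50, SE 0.091, adjusted p = 2.13e-06). Its level at 60 min was below the dark level in both replicates.

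**Figure D4:**
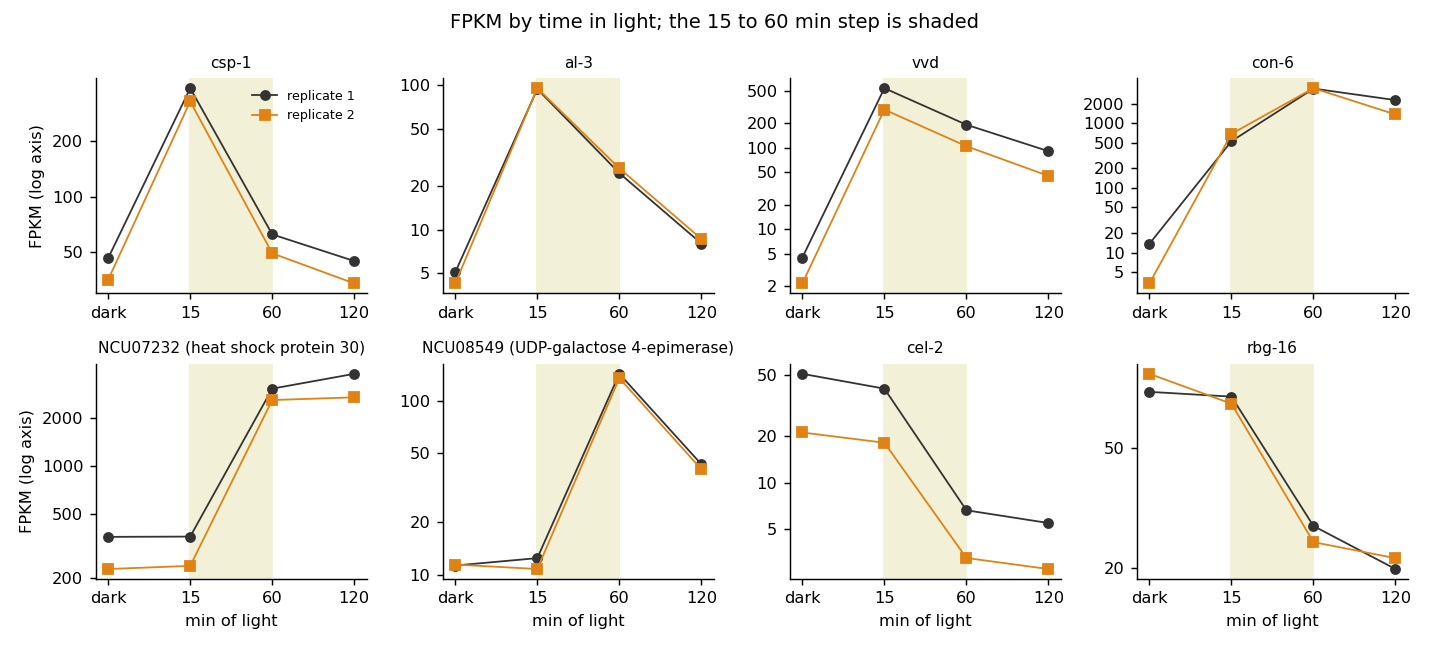
FPKM (y axis, log scale) in the dark and after 15, 60, and 120 min of light (x axis) for 8 genes, in replicate 1 (circles) and replicate 2 (squares), with the step from 15 to 60 min shaded. *csp-1*, *al-3*, and *vvd* peak at 15 min, *con-6* and NCU08549 peak at 60 min, NCU07232 is near its dark level at 15 min and at 3058 and 2595 FPKM at 60 min, and *cel-2* and *rbg-16* drop below the dark level.

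Conidiation genes, which act in the making of asexual spores, moved in both directions. Of 10 members 8 were tested, of which 4 rose (50%, beside 25.7% of all genes) and 4 fell (50%, beside 31.6%). With the length trend removed 4 rose and 3 fell, and without the block 1 rose and 2 fell. *con-6*, *con-8*, *con-10*, and *eas* rose, and *fl*, *csp-1*, *csp-2*, and *acon-2* fell. *fl* (NCU08726), which encodes the main transcription factor of conidiation, had 3.48 and 2.71 FPKM at 60 min, against 11.7 and 8.67 at 15 min (log2 fold change -1.44, SE 0.12, adjusted p = 1.00e-05), after a rise above the dark level at 15 min in both replicates. *con-6* (NCU08769) had 13.8 and 3.36 FPKM in the dark, 526 and 682 at 15 min, 3408 and 3456 at 60 min, and 2262 and 1358 at 120 min (log2 fold change 2.52, SE 0.39, adjusted p = 5.01e-04). *con-10* (NCU07325) had 284 and 691 FPKM at 60 min, against 34.5 and 158 at 15 min (log2 fold change 2.56, SE 0.18, adjusted p = 4.41e-06). Replicate 2 had more *con-10* than replicate 1 at each of these times, yet the 2 samples at 60 min were both above the 2 at 15 min. *con-8* (NCU09235) had 492 and 680.5 FPKM at 60 min, against 192 and 299 at 15 min (log2 fold change 1.27, SE 0.11, adjusted p = 1.74e-05). *eas* (NCU08457), the gene of the hydrophobin of the spore coat, had 232 and 243 FPKM at 60 min, against 145 and 130.4 at 15 min (log2 fold change 0.78, SE 0.15, adjusted p = 0.00195), a call that was lost under quantile normalization (adjusted p = 0.0764). Summed over the 6 conidiation markers, FPKM came to 3927 and 4393 at 60 min, against 718 and 980.3 at 15 min, most of it *con-6*.

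Among the 12 largest rises, 7 had a symbol or a described product. NCU07232, annotated as heat shock protein 30, a small heat shock protein, had 359.9 and 226 FPKM in the dark, 361 and 237 at 15 min, 3058 and 2595 at 60 min, and 3788 and 2698 at 120 min (log2 fold change 3.26, SE 0.13, adjusted p = 2.84e-07). Its samples at 15 min were level with those in the dark, and the rise came between 15 and 60 min. NCU08549, a UDP-galactose 4-epimerase gene, had 144 and 136 FPKM at 60 min, against 12.4 and 10.8 at 15 min (log2 fold change 3.49, SE 0.092, adjusted p = 8.95e-08). A glutamate decarboxylase gene, NCU06803, had 118 and 57.5 FPKM at 60 min, against 9.63 and 5.32 at 15 min (log2 fold change 3.35, SE 0.11, adjusted p = 9.91e-08). NCU01861, of the short chain dehydrogenase family, was an early gene that rose again, with 5.85 and 4.09 FPKM in the dark, 26.5 and 24.8 at 15 min, and 321 and 243 at 60 min (log2 fold change 3.40, SE 0.10, adjusted p = 9.91e-08). *ncw-5* (NCU00716), for a cell wall protein, had 935 and 1272 FPKM at 60 min, against 114 and 143 at 15 min, and 2507 and 3023 at 120 min. *gh54-1* (NCU09775), for an alpha-N-arabinofuranosidase, had 82.2 and 52.4 FPKM at 60 min, against 7.89 and 6.30 at 15 min. NCU12074, annotated as a nitroimidazole antibiotic resistance protein, had 56.1 and 124 FPKM at 60 min, against 5.78 and 8.65 at 15 min.

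The other 5 of these 12 were genes of unknown function. NCU06597 had 95.3 and 89.5 FPKM in the dark, 333 and 396 at 15 min, and 4316 and 3553 at 60 min (log2 fold change 3.43, SE 0.14, adjusted p = 2.46e-07). NCU05652 had 142 and 202 FPKM at 60 min, against 12.9 and 22.6 at 15 min, and NCU07345 had 269 and 302, against 27.7 and 39.2. NCU09284 went down before it went up, with 3.30 and 5.57 FPKM in the dark, 0.0961 and 0.415 at 15 min, and 13.3 and 16.2 at 60 min. NCU00149 was listed at 0 in the dark and at 15 min in both replicates, and had 21.4 and 11.7 FPKM at 60 min and 29.2 and 18.2 at 120 min. Of the 12, 4 had been at least 2-fold above the dark level at 15 min in both replicates, and 8 were lower at 120 than at 60 min in both.

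Some of the most abundant genes that rose were clock-controlled or light-induced. *ccg-1* (NCU03753) had 22070.2 and 19299 FPKM at 60 min, against 3692 and 4353 at 15 min (log2 fold change 2.36, SE 0.21, adjusted p = 1.75e-05). *ccg-13* (NCU08907) had 13455 and 10241 FPKM at 60 min, against 1943 and 1816 at 15 min (log2 fold change 2.64, SE 0.21, adjusted p = 9.97e-06). *bli-3* (NCU07267), a blue light-induced gene, had 24.4 and 16.3 FPKM in the dark, 525 and 487 at 15 min, 2578 and 2062 at 60 min, and 651 and 433 at 120 min (log2 fold change 2.19, SE 0.13, adjusted p = 1.92e-06). *ncw-3* (NCU07817), for an abundant cell wall protein, had 14252 and 11448 FPKM at 60 min, against 3818 and 3321 at 15 min (log2 fold change 1.84, SE 0.17, adjusted p = 2.50e-05). All 4 are shorter than the median gene, and with the length trend removed their log2 fold changes were 1.83 for *ccg-1*, 2.28 for *ccg-13*, 1.87 for *bli-3*, and 1.77 for *ncw-3*.

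Antioxidant enzyme genes mostly rose. Of 18 members, 10 rose (55.6%, beside 25.7% of all genes) and 4 fell (22.2%, beside 31.6%), with a median log2 fold change of 0.48. With the length trend removed 10 rose and 3 fell, with a median of 0.56, and without the block 1 rose and 0 fell. *cat-1* (NCU08791), a catalase gene, had 69.3 and 44.3 FPKM in the dark, 165 and 101 at 15 min, 493 and 302 at 60 min, and 287 and 163 at 120 min (log2 fold change 1.57, SE 0.094, adjusted p = 1.88e-06). NCU09534, a peroxiredoxin gene, had 659.6 and 581 FPKM at 60 min, against 286 and 261 at 15 min (log2 fold change 1.18, SE 0.11, adjusted p = 2.35e-05). The glutathione S-transferase genes NCU04676 and NCU05706 rose, with log2 fold changes of 1.10 and 1.05. *sod-1* (NCU02133), the Cu/Zn superoxide dismutase gene, had 587 and 968 FPKM in the dark, 348 and 563 at 15 min, 720.0 and 1017 at 60 min, and 224 and 354 at 120 min (log2 fold change 0.95, SE 0.11, adjusted p = 8.04e-05). Its level at 15 min was below that in the dark in both replicates, and its level at 60 min was slightly above that in the dark.

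In metabolism of storage carbon and osmolytes, of 15 genes tested (16 members) 8 rose (53.3%, beside 25.7% of all genes) and 5 fell (33.3%, beside 31.6%). With the length trend removed 8 rose and 4 fell, and without the block 1 rose and 1 fell. *gcy-3* (NCU04510), an aldose reductase gene, had 481 and 511 FPKM in the dark, 291 and 264 at 15 min, 1649 and 1271 at 60 min, and 717 and 616 at 120 min (log2 fold change 2.38, SE 0.13, adjusted p = 1.10e-06). Another aldose reductase gene, NCU01233, had 73.7 and 198 FPKM at 60 min, against 23.7 and 57.7 at 15 min (log2 fold change 1.68, SE 0.096, adjusted p = 1.56e-06). *gcy-1* (NCU04923) went the other way, with 76.0 and 58.2 FPKM at 60 min, against 215 and 144 at 15 min (log2 fold change -1.39, SE 0.10, adjusted p = 6.17e-06). The 2 key enzymes of the glyoxylate cycle, which makes sugar precursors from acetate, rose: *acu-3* (NCU04230), for isocitrate lyase, had 38.8 and 51.7 FPKM at 60 min, against 13.7 and 19.6 at 15 min (log2 fold change 1.40, SE 0.10, adjusted p = 5.69e-06), and *acu-9* (NCU10007), for malate synthase, had 20.1 and 21.4, against 8.52 and 8.38. *acu-6* (NCU09873), for phosphoenolpyruvate carboxykinase of gluconeogenesis, fell, with 23.8 and 20.5 FPKM at 60 min, against 58.9 and 57.7 at 15 min (log2 fold change -1.36, SE 0.097, adjusted p = 5.11e-06). Of all 7 genes on that list 4 rose (57.1%, beside 25.7% of all genes) and 2 fell (28.6%, beside 31.6%). With the length trend removed 5 rose and 1 fell, and without the block 1 rose and 1 fell.

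Glycolysis and fermentation genes gave 8 rises (53.3%) and 1 fall (6.67%) among 15 tested (18 members), beside 25.7% and 31.6% of all genes. But the median, 0.27, was -0.01 under quantile normalization, with 4 rises and 5 falls. With the length trend removed there were 9 rises and 0 falls, and without the block 1 and 0. NCU04823, an alcohol dehydrogenase gene, rose most, with 25.4 and 25.8 FPKM in the dark, 79.4 and 82.4 at 15 min, and 627 and 615 at 60 min (log2 fold change 2.92, SE 0.096, adjusted p = 9.91e-08). *pgk* (NCU07914), for phosphoglycerate kinase, had 2828 and 1738 FPKM at 60 min, against 1383 and 868 at 15 min (log2 fold change 1.02, SE 0.13, adjusted p = 1.59e-04). Amino acid biosynthesis gave 31 rises (45.6%) and 14 falls (20.6%) among 68 tested (69 members), beside 25.7% and 31.6% of all genes, with a median of 0.20. There were 36 rises and 13 falls with the length trend removed, 20 and 15 under quantile normalization, and 8 and 1 without the block. The arginine gene *arg-12* (NCU01667) had 217 and 126 FPKM at 60 min, against 46.5 and 36.5 at 15 min (log2 fold change 1.98, SE 0.13, adjusted p = 3.20e-06), and the histidine gene *his-6* (NCU07156) had 342 and 311, against 102 and 103. The 2 large falls were *ilv-2* (NCU03608), of branched-chain amino acid synthesis, with 194 and 169 FPKM at 60 min, against 516 and 456 at 15 min (log2 fold change -1.42, SE 0.095, adjusted p = 3.58e-06), and *met-8* (NCU06512), for methionine synthase, with 201 and 136, against 472 and 311.

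Genes for making ribosomes fell. Of 25 ribosome biogenesis members 24 were tested, of which 19 fell (79.2%, beside 31.6% of all genes) and 1 rose (4.17%, beside 25.7%). Large falls numbered 6 of the 24, beside 3.05% of all genes tested. The median log2 fold change was -0.66, and the median length, 2393 bp, was close to that of all genes. With the length trend removed, 19 of 23 fell and the median was -0.76, and without the block 3 fell and 0 rose. The 6 large falls began with NCU08595, a ribosome biogenesis protein gene, which had 32.7 and 21.3 FPKM in the dark, 21.7 and 15.5 at 15 min, 5.43 and 6.13 at 60 min, and 5.35 and 5.13 at 120 min (log2 fold change -1.52, SE 0.17, adjusted p = 6.18e-05). *rbg-16* (NCU03702), for fibrillarin, the methyltransferase of ribosomal RNA, had 27.5 and 24.3 FPKM at 60 min, against 73.8 and 69.9 at 15 min (log2 fold change -1.44, SE 0.11, adjusted p = 7.06e-06). The Noc2 gene NCU02066, for an assembly factor of the large subunit, had 3.58 and 1.89 FPKM at 60 min, against 10.57 and 6.95 at 15 min (log2 fold change -1.40, SE 0.13, adjusted p = 2.14e-05). *rbg-18* (NCU03396), for the nucleolar protein NOP58, had 19.8 and 10.5 FPKM at 60 min, against 46.1 and 27.7 at 15 min (log2 fold change -1.25, SE 0.092, adjusted p = 6.26e-06). The samples at 60 min were below those at 15 min in both replicates for these genes, and those at 15 min were themselves below the dark level. *rbg-36* (NCU00476) was the one that rose, with 17.5 and 10.0 FPKM at 60 min, against 10.8 and 6.72 at 15 min (log2 fold change 0.58, SE 0.12, adjusted p = 0.00265). Over the list, the median log2 fold change against the dark was -0.47 at 15 min, -1.13 at 60 min, and -1.02 at 120 min. *rpo-18* (NCU01638), for the largest subunit of RNA polymerase I, which makes ribosomal RNA, was one of 3 falls among 4 genes of RNA polymerases I and III (3 with the length trend removed, 1 without replicate 2 at 15 min, 0 without the block). It had 2.82 and 1.49 FPKM at 60 min, against 15.6 and 7.16 at 15 min (log2 fold change -1.92, SE 0.13, adjusted p = 4.40e-06). Falls made up 75% of these 4 polymerase genes, beside 31.6% of all genes.

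Cytoplasmic ribosomal protein genes moved the other way by a smaller amount, and this depended on scaling and on single libraries. Of 77 members 54 rose (70.1%, beside 25.7% of all genes) and 0 fell (beside 31.6%), with a median of 0.55. With the length trend removed 41 rose and 1 fell, but under quantile normalization 5 rose and 11 fell with a median of -0.07. Rises numbered 15 without replicate 1 at 15 min, 20 without replicate 2 at 15 min, 18 without replicate 1 at 60 min, and 1 without the block. The 48 genes of the respiratory chain and ATP synthase gave 25 rises (52.1%, beside 25.7% of all genes) and 3 falls (6.25%, beside 31.6%), with a median of 0.34. These genes gave 14 rises and 4 falls with the length trend removed, and 3 rises and 11 falls under quantile normalization (median -0.04). Their rises numbered 12 without replicate 1 at 15 min, 12 without replicate 2 at 15 min, 9 without replicate 1 at 60 min, and 0 without the block. Mitochondrial ribosomal protein genes gave 12 rises (20.7%) and 12 falls (20.7%) among 58, both below the shares of all genes, 25.7% and 31.6%. Their median was -0.08. Rises and falls were 15 and 8 under median scaling and 5 and 22 under quantile normalization. With the length trend removed they were 9 and 22 among 57 (median -0.16). Their rises numbered 7 without replicate 1 at 60 min, and without the block 0 rose and 0 fell. Of the 28 proteasome genes 8 rose (28.6%, beside 25.7% of all genes) and 2 fell (7.14%, beside 31.6%), 6 and 4 with the length trend removed, and 1 and 7 under quantile normalization, with medians of 0.11, 0.03, and -0.14. Their rises numbered 2 without replicate 1 at 15 min, 3 without replicate 2 at 15 min, 4 without replicate 1 at 60 min, and 0 without the block.

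Chaperone genes, NCU07232 apart, mostly fell a little. Of 30 members, 17 fell (56.7%, beside 31.6% of all genes) and 6 rose (20.0%, beside 25.7%), 13 and 6 with the length trend removed. Falls numbered 9 without replicate 1 at 15 min, and without the block 1 fell and 1 rose. The subunits of the cytosolic chaperonin, which folds actin and tubulin, gave 7 falls and 0 rises among 9, between -0.61 and -0.10. The 2 large falls were the DnaJ domain gene NCU02490, with 8.89 and 9.80 FPKM at 60 min, against 19.8 and 30.4 at 15 min (log2 fold change -1.303, SE 0.12, adjusted p = 2.35e-05), and *hsp70-4* (NCU00692), with 27.02 and 29.4, against 57.9 and 64.6. Cell wall genes gave 10 rises (27.8%) and 13 falls (36.1%) among 36 tested (42 members), shares near those of all genes, 25.7% and 31.6%. The split was 13 and 8 with the length trend removed, 4 and 18 under quantile normalization, and 4 and 0 without the block. The rises were led by *ncw-5* and *ncw-3*, above, and *gel-4* (NCU07253), for a glucanosyltransferase, had 662 and 637 FPKM at 60 min, against 276 and 248 at 15 min (log2 fold change 1.31, SE 0.11, adjusted p = 1.05e-05). Chitin synthase genes, of 4282 bp and more in length, gave 4 falls and 0 rises among 5, between -0.62 and -0.15. Among all genes, 49.9% of those of 3571 to 4414 bp and 58.5% of those of 4420 bp and more fell. The part of length in the falls of chitin synthase and chaperonin genes was not tested.

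**Figure D5:**
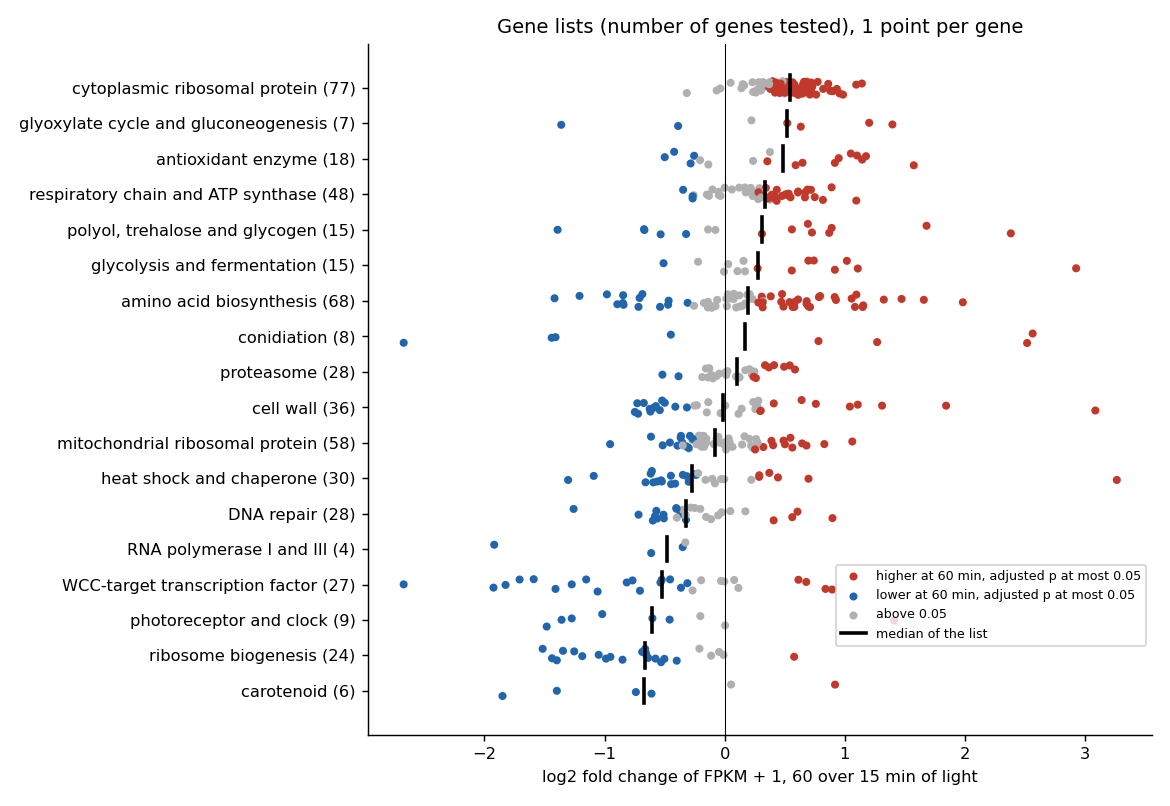
Log2 fold change of FPKM + 1 at 60 over 15 min (x axis) for the genes of 18 lists, with 1 point per gene and the number tested in parentheses; red and blue points are higher and lower at 60 min at an adjusted p of 0.05 or less, gray points are above it, and black bars are list medians. Medians run from -0.67 for carotenoid genes to 0.55 for cytoplasmic ribosomal protein genes, and the ribosomal protein median is -0.07 under quantile normalization.

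The other 7 of the 12 largest falls, *rpo-18* among them, were of genes less than 2-fold above the dark level at 15 min in at least one replicate, and fatty acid synthase stood out. *cel-2* (NCU07307), for the beta subunit of fatty acid synthase, had 50.8 and 21.2 FPKM in the dark, 40.7 and 18.1 at 15 min, 6.62 and 3.24 at 60 min, and 5.47 and 2.75 at 120 min (log2 fold change -2.31, SE 0.12, adjusted p = 1.03e-06). *cel-1* (NCU07308), for the alpha subunit, had 7.29 and 3.42 FPKM at 60 min, against 35.7 and 15.2 at 15 min (log2 fold change -2.01, SE 0.12, adjusted p = 1.70e-06). Both are long genes, at 7598 and 6650 bp, and their log2 fold changes with the length trend removed were -1.80 and -1.54. *crn* (NCU00202), annotated as a coronin, an actin-binding protein, had 26.8 and 23.7 FPKM at 60 min, against 105 and 99.6 at 15 min (log2 fold change -1.98, SE 0.089, adjusted p = 4.29e-07). The sulfate permease gene *cys-14* (NCU04433) had 8.33 and 5.71 FPKM at 60 min, against 36.4 and 23.7 at 15 min (log2 fold change -1.94, SE 0.094, adjusted p = 6.48e-07). The genes of unknown function NCU04826, with 10.7 and 4.23 FPKM at 60 min, against 52.7 and 21.6 at 15 min, and NCU09259, with 3.14 and 1.65, against 17.4 and 7.58, completed the 12.

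The study grouped light-regulated genes into 5 clusters on these same samples, so their direction here is a description and not independent evidence. Its cluster of early, transient genes had 37 falls and 4 rises among 48, its cluster of late genes 216 rises and 0 falls among 221, and its cluster of repressed genes 194 falls and 6 rises among 220 tested. Its cluster with a fast, high, and lasting response, which holds *vvd* and *con-6*, gave 8 rises and 4 falls among 13.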

How the data were processed

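Poly(A) RNA of 10 *N. crassa* cultures (dark, and 15, 60, 120, and 240 min of light, 2 replicates each) was sequenced as single libraries. The deposited values are FPKM for 9728 genes, 1 table per sample, made by the authors with CASAVA 1.8.2, TopHat 2.0.5, and Cuffdiff against genome assembly 10 with correction for sequence bias and weighting of reads with several matches. FPKM do not give the depth of a library, so no counting intervals are given; by the study's own account the libraries of replicate 2 were the shallower ones.

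FPKM were taken as log2(FPKM + 1) for the 7220 genes with a mean above 1 over the dark, 15, 60, and 120 min samples, and fitted with limma 3.58.1 in R 4.3.3 (time as a factor, replicate number as a block, moderated variances with an intensity trend, Benjamini-Hochberg adjustment). The 240 min samples were left out because the study describes their replicates as divergent. A call was an adjusted p of 0.05 or less, and a large change was a log2 ratio of at least 1 in the same direction in both replicates. Same-numbered samples deviated together (correlations of 0.78 to 0.86 over all pairs of times), and the numbers also mark the RNA isolation method and the depth, which cannot be told apart from the replicate. With 2 against 2 samples an exact permutation test could not pass 0.05. In simulated data with 200 changed genes among 7220, the fit with the block gave 185 calls, of which 6 were false. The fit without the block gave 48 calls, of which 0 were false. Far fewer genes were changed there than were called in the data, so the simulation does not vouch for the number of calls. Whether the block suits the deposited FPKM was not tested by the simulation.

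Named genes were the 12 largest rises and 12 largest falls among large changes with a mean of at least 5 FPKM over the 4 samples, members of the gene lists with a known role, and genes with a described role in the light response. Members, lists, and tests were chosen with earlier results of these data known. Gene symbols and products came from RefSeq, which matched 9218 genes by locus tag, and from the study's annotation; lengths are of genes in RefSeq assembly NC12. Of the genes, 112 had values identical to those of another gene, as when copies share reads, and 0 of these are named. Promoter motifs were not searched.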

Additional observations from a re-analysis of the deposited data

How the results depend on the processing

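The 4136 calls rested on the replicate block: without it there were 413 (276 higher, 137 lower), with all 10 samples 344 (110 and 234), and with median-of-ratios scaling and no replicate block, chosen after seeing the data, 846 (478 and 368). Leaving out 1 sample gave between 2835 and 4272 calls, with 1283 to 1956 higher and 1552 to 2317 lower. Large rises numbered 203 with a pseudocount of 10, and large falls 383 with a pseudocount of 0.1 and 42 with one of 10. The genes lower at 15 min than in the dark had cross-replicate medians at 60 over 15 min of 0.15 (chosen in replicate 1) and 0.17 (chosen in replicate 2), and these were 0.043 and 0.10 with a pseudocount of 0.1, 0.23 and 0.091 with one of 10, and 0.25 and 0.19 with median scaling. The median of the falling genes chosen in replicate 1 was -1.18 with a pseudocount of 0.1. Of 96 genes followed singly, *al-2* (NCU00585) reversed to -0.42 under quantile normalization, and 41 were no longer called without the block and 47 with all 10 samples. The cause of these shifts was not tested. The shallower libraries of replicate 2 limit what can be said of weakly expressed genes, and genes with a mean FPKM of 1 or less were not tested.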

Other observations

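Most genes of lipid synthesis, and 10 of 20 of sulfur metabolism, fell in the step to 60 min. Their lists were drawn up after the values had been seen, so the counts are descriptions. All 11 fatty acid synthesis genes tested fell, beside 31.6% of all genes. Of the 11, 7 fell at least 2-fold in both replicates, beside 3.05% of all genes. The median log2 fold change was -1.25 (-0.99 with the length trend removed, and again 11 falls, but 3 without the block). Beside *cel-1* and *cel-2*, the acetyl-CoA carboxylase gene NCU08535, for the first committed step, had 1.93 and 0.995 FPKM at 60 min, against 8.13 and 4.15 at 15 min (log2 fold change -1.50, SE 0.14, adjusted p = 1.96e-05). The ATP-citrate synthase gene NCU06785, whose product makes cytosolic acetyl-CoA, had 29.3 and 23.7 FPKM at 60 min, against 105 and 74.8 at 15 min (log2 fold change -1.71, SE 0.090, adjusted p = 9.69e-07). Both samples at 60 min lay below both at 15 min for NCU06785 and NCU08535. Over this list the median log2 fold change against the dark was -0.28 after 15 min, -1.62 after 60 min, and -2.03 after 120 min.

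Of 16 ergosterol genes, which make the main fungal sterol, 11 fell (68.75%, beside 31.6% of all genes) and 0 rose (beside 25.7%). The median was -0.62 (11 falls and 1 rise, median -0.46, with the length trend removed, and 3 and 0 without the block). *erg-13* (NCU03922), for hydroxymethylglutaryl-CoA synthase, had 83.9 and 66.8 FPKM at 60 min, against 216 and 161 at 15 min (log2 fold change -1.31, SE 0.092, adjusted p = 4.74e-06), and *erg-14* (NCU00712), for the reductase that follows it, had 11.5 and 8.28, against 32.1 and 21.1. *erg-6* (NCU06054), for squalene synthetase, had 5.72 and 3.07 FPKM at 60 min, against 18.4 and 9.41 at 15 min, and *erg-8* (NCU02624), for a sterol demethylase of the cytochrome P450 family, had 88.6 and 84.9, against 189.6 and 195. Of 15 sphingolipid genes, 11 fell (73.3%, beside 31.6% of all genes) and 2 rose (13.3%, beside 25.7%). With the length trend removed 12 fell and 2 rose, and without the block 5 fell and 1 rose. The dihydroceramide desaturase gene *dcd* (NCU08927) had 15.6 and 15.6 FPKM at 60 min, against 47.1 and 55.7 at 15 min (log2 fold change -1.65, SE 0.10, adjusted p = 2.25e-06), whereas *gsl-19* (NCU06761), for sphingosine-1-phosphate lyase, which breaks the pathway's products down, had 165 and 178, against 83.0 and 90.8 (log2 fold change 0.97, SE 0.090, adjusted p = 2.21e-05). Of 20 sulfur and methionine genes tested (21 members), 10 fell (50%, beside 31.6% of all genes) and 3 rose (15%, beside 25.7%). With the length trend removed 9 fell and 3 rose, and without the block 1 fell and 0 rose. Next to *cys-14* and *met-8*, *cys-18* (NCU07930), for adenosylhomocysteinase, had 201 and 101 FPKM at 60 min, against 373 and 212 at 15 min (log2 fold change -0.98, SE 0.11, adjusted p = 8.65e-05).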
